A study of Mus musculus with 8 samples.

Results

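Cytosolic heat shock chaperones were examined in mouse tibialis anterior (TA) muscle as a group of 10 genes: *Hspa1a*, *Hspa1b*, *Hspa8*, *Hsp90aa1*, *Hsph1*, *Dnajb1*, *Hspb1*, *Hspb8*, *Cryab* and *Bag3*. They were chosen by gene symbol, with earlier results of these data known, from a table of transcript abundances (TPM) of 41709 genes, and all 10 passed the filter that left 11530 genes to test. Between muscles with *Uba1* siRNAs and muscles with NT siRNAs, the J-domain co-chaperone *Dnajb1* differed most among the 10. *Dnajb1* mRNA averaged 11.6 ± 3.13 TPM in NT muscles and 5.83 ± 1.31 TPM in *Uba1* muscles (mean ± SD, n = 4 per group) and was lower in 4 of 4 mice. The inducible HSP70 genes *Hspa1a* and *Hspa1b* were also lower in 4 of 4 mice, as 2.98% of all genes were. *Hsph1* and *Cryab* were higher in 4 of 4 mice, as 32.2% of all genes were, and *Hspa8*, *Hsp90aa1* and *Bag3* had log2 fold changes (log2FC) close to 0 in TPM as deposited. None of the 10 passed an adjusted p of 0.05 when the muscles were treated as unpaired (0.026% of all genes did), and *Dnajb1* passed when the 2 muscles of each mouse were paired (0.494% of all genes did), a call that was lost without the mouse of replicate 3 or of replicate 4.

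The muscles came from C57BL/6J male mice, 3 months old. In each of 4 mice, a TA muscle was electroporated, after hyaluronidase, with a pool of siRNAs against *Uba1*, the gene of the E1 enzyme that activates ubiquitin, and the contralateral TA muscle with a pool of non-targeting (NT) siRNAs. Muscles are called *Uba1* and NT muscles here. They were collected 7 days later and total mRNA of the whole muscle was sequenced. Every NT muscle carries the letter R and every *Uba1* muscle the letter L, so that leg and siRNA cannot be told apart, and the treatment tags of replicates 2, 3 and 4 name UBA2, UBA3 and UBA4 where their titles name UBA1. No promoter restricts the siRNAs to a cell type, and in whole muscle fewer cells of a type cannot be told apart from less RNA per cell. *Uba1* itself was at 60.6 ± 2.11 TPM in NT muscles and 15.9 ± 6.83 TPM in *Uba1* muscles, a log2FC of -1.98 (limma, adjusted p = 0.0527, and 0.0278 with the muscles paired by mouse). TPM are scaled to transcript length and sum to 1000000 in each muscle, so they keep no read depth. Mitochondrially encoded transcripts took 42.1 to 45.7% of the TPM in NT muscles and 39.9 to 50.3% with *Uba1* siRNAs, with the highest share in *Uba1* replicate 2. Summed fast myofiber markers (*Myh4*, *Acta1*, *Ckm* and others) ranged from 133360 to 146173 TPM in NT muscles and from 102906 to 147740 TPM in *Uba1* muscles, lowest in *Uba1* replicate 2, so these muscles carry the markers of their label.

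Heat shock proteins keep other proteins folded. HSP70 chaperones bind exposed hydrophobic stretches and release them in an ATP-driven cycle, in which J-domain proteins such as DNAJB1 stimulate ATP hydrolysis and nucleotide exchange factors such as HSPH1 and BAG3 reset the chaperone. Small heat shock proteins such as HSPB1, HSPB8 and CRYAB (alpha-B crystallin) hold unfolding proteins without ATP, and in striated muscle BAG3 joins HSPB8 and HSP70 to send damaged filament proteins to autophagy. Many of these genes are induced by the transcription factor HSF1 when unfolded proteins accumulate, and HSF1 binds repeats of the pentamer nGAAn in their promoters.

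The 250 bases upstream of each member's canonical transcript start (GENCODE M39 on GRCm39) were read to show which promoters of the group hold such repeats. They are printed for *Hspa1a* (chr17:35191133-35191382, minus strand), *Hsph1* (chr5:149559807-149560056, minus strand), *Hspb1* (chr5:135916510-135916759, plus strand), *Cryab* (chr9:50663937-50664186, plus strand) and *Dnajb1* (chr8:84334572-84334821, plus strand), which are *Dnajb1*, the member whose mRNA differed most, and the members whose promoters hold a match, with *Hspa1a* standing also for its near copy *Hspa1b*. Each is written 5′ to 3′ on the strand of the gene, with capitals for a match to GAANNTTC or TTCNNGAA, which are a pair of pentamers in either orientation and read the same on both strands.

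Hspa1a: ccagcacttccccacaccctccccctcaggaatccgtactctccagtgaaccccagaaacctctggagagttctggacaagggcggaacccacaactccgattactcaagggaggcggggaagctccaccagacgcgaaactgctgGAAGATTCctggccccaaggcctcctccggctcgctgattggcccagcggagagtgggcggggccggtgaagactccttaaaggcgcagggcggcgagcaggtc

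Hsph1: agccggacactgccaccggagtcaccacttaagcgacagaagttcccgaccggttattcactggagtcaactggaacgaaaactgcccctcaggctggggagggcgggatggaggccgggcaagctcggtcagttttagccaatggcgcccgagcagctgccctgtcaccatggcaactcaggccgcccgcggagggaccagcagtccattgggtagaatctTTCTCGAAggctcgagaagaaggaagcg

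Hspb1: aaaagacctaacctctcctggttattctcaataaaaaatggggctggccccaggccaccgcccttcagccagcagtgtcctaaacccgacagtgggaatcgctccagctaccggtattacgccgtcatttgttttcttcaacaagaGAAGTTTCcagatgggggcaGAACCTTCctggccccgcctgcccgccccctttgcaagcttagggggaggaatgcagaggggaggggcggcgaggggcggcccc

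Cryab: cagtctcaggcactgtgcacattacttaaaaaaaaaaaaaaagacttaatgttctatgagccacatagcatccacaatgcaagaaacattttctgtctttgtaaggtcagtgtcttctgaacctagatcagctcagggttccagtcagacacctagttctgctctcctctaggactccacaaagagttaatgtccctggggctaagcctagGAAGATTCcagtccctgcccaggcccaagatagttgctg

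Dnajb1: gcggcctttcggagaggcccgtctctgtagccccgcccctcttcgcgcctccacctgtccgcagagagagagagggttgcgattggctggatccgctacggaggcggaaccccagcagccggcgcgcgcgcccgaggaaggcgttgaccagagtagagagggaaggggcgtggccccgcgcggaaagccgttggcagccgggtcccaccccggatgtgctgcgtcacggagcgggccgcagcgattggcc

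A match to either motif lay in the window of 5 of the 10 members and in 12.3% of 21757 promoters of protein-coding genes of the same length (6.33% for GAANNTTC and 6.79% for TTCNNGAA). The match ended 96 bases before the start in *Hspa1a* and in *Hspa1b*, 31 bases before it in *Cryab* and 20 bases before it in *Hsph1*, and *Hspb1* held matches at 76 and 96 bases. The *Hspa1b* window differed from that of *Hspa1a* at 3 of 250 positions, so these members are not separate cases in the count of 5. *Dnajb1*, *Hspa8*, *Hsp90aa1*, *Hspb8* and *Bag3* held no match in this window. A match is a run of letters and does not show binding. Members with a match stood on both sides of 0 in the comparison given below, with *Hspa1a*, *Hspa1b* and *Hspb1* lower and *Hsph1* and *Cryab* higher with *Uba1* siRNAs. None of these passed the adjusted p over all 8 muscles, with or without pairing. A longer motif of 3 pentamers in alternating orientation was also sought in the same windows. None of the 10 members held it, and 0.349% of the 21757 promoters did. With so low a share, its absence from 10 windows is no result of its own.

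Levels in TPM, which are per transcript length, can be ordered between genes. Over the 8 muscles *Cryab* (543 TPM), *Hspa8* (517 TPM) and *Hspb8* (468 TPM) had the highest means and their ranges overlapped. *Hspb1* followed at 205 TPM and *Bag3* at 94.1 TPM, each with a range apart from its neighbours. *Hsp90aa1* at 23.8 TPM and *Hsph1* at 22.5 TPM overlapped each other, as did *Dnajb1* at 8.74 TPM, *Hspa1a* at 8.66 TPM and *Hspa1b* at 5.49 TPM. The muscle-enriched small heat shock proteins and constitutive HSP70 thus stood at the top of the order and the stress-inducible HSP70 genes at its foot. Together the 10 genes took between 1594 and 2186 TPM of each muscle.

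**Figure D1:**
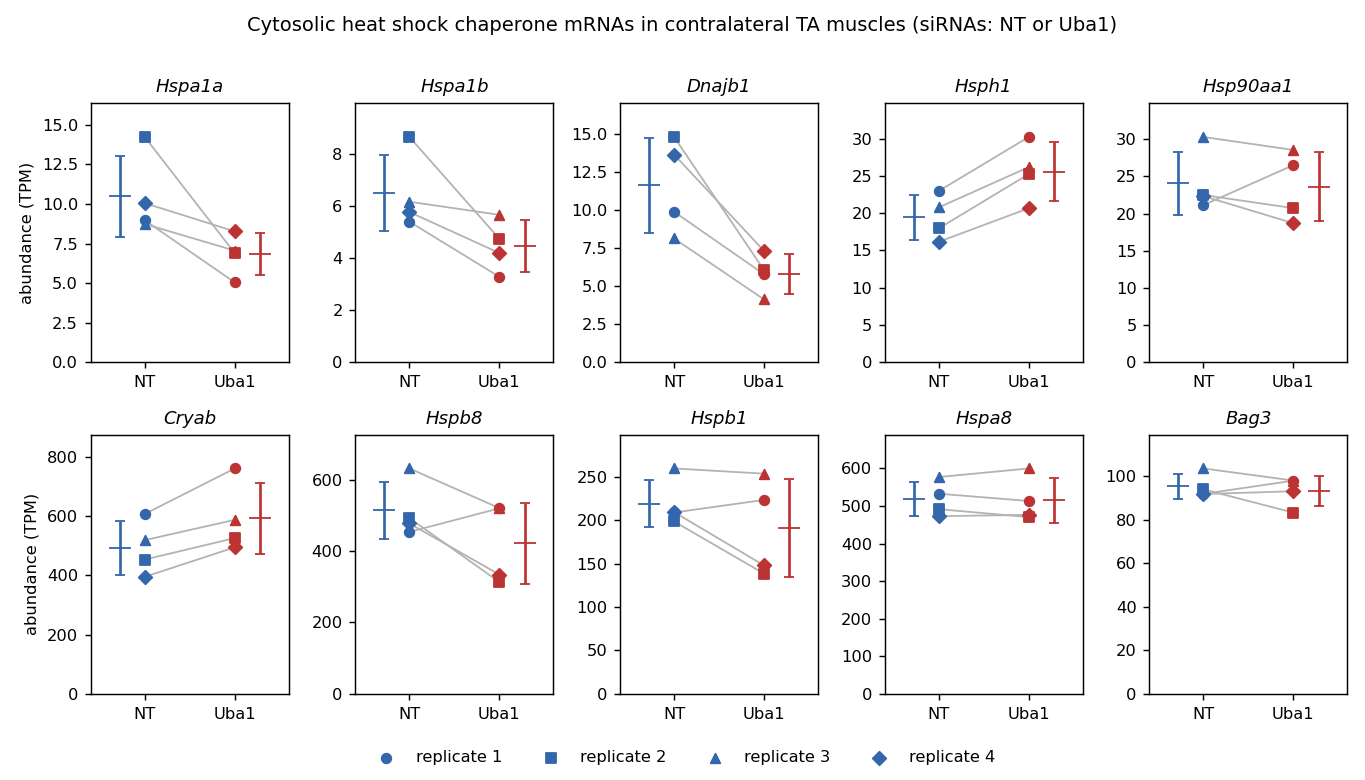
Abundance (TPM, linear axis from 0, scaled for each gene) of the 10 chaperone genes in every muscle with NT or *Uba1* siRNAs, where each point is a muscle, its shape the replicate, lines join the muscles of a mouse and the bars beside the points are mean ± SD (n = 4). The *Dnajb1* points do not overlap between the groups (8.15 to 14.8 TPM against 4.14 to 7.33 TPM), while those of *Hspa8*, *Hsp90aa1* and *Bag3* overlap.

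To see whether HSP70 genes respond to *Uba1* knockdown, the inducible paralogs were taken first. *Hspa1a* (chromosome 17 of GRCm39, 35188166 to 35191132, minus strand, 1 exon) was at 8.97, 14.2, 8.74 and 10.1 TPM in NT replicates 1 to 4 and at 5.05, 6.90, 7.06 and 8.27 TPM in the *Uba1* muscles of the same mice. The groups did not overlap, with the highest *Uba1* muscle below the lowest NT muscle. The log2FC was -0.55 (standard error 0.167, 95% interval -0.93 to -0.17, limma adjusted p = 0.177, and 0.0890 with pairing). The exact permutation test, which takes the muscles as unpaired, gave p = 0.0286 (two-sided), the smallest that 4 against 4 muscles allow. *Hspa1b* (chromosome 17, 35175412 to 35178214, minus strand, 1 exon) was at 5.41, 8.66, 6.17 and 5.78 TPM in NT muscles and 3.29, 4.75, 5.67 and 4.20 TPM in *Uba1* muscles. Its groups overlapped through *Uba1* replicate 3, and its log2FC was -0.45 (standard error 0.162, limma adjusted p = 0.210, and 0.0960 with pairing, exact permutation p = 0.0571). These paralogs share sequence: 47.1% of the 100-base stretches of *Hspa1a* also occur in *Hspa1b*, and how reads that match both were counted is not given, so the split between them is uncertain. Summed, they were at 17.0 ± 3.97 TPM in NT muscles and 11.3 ± 2.03 TPM in *Uba1* muscles (SD, n = 4 each), a log2FC of -0.54 (limma adjusted p = 0.177, and 0.0868 with pairing, exact permutation p = 0.0286).

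The constitutive HSP70 gene *Hspa8* (chromosome 9, 40711630 to 40731039, plus strand) stood far above its inducible relatives. It was at 533, 492, 577 and 473 TPM in NT muscles and 513, 470, 600 and 476 TPM in *Uba1* muscles. Neither group was above the other, and 2 of 4 mice went each way. The log2FC was -0.012 with a 95% interval from -0.23 to 0.21 (limma adjusted p = 0.948, exact permutation p = 0.914), and its sign changed when TPM were rescaled without mitochondrial genes. Of the 100-base stretches of *Hspa8*, 62.8% also occur in other annotated genes, chiefly *Gm15459*. Within a muscle, *Hspa8* stood 21.5 to 38.7 times above *Hspa1a* and *Hspa1b* summed with NT siRNAs and 38.2 to 61.6 times with *Uba1* siRNAs. That ratio was higher with *Uba1* siRNAs in 4 of 4 mice.

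Among the partners of HSP70, *Dnajb1* (chromosome 8, 84334811 to 84339820, plus strand, 3 exons) encodes the J-domain protein that delivers clients to HSP70. It was at 9.91, 14.8, 8.15 and 13.7 TPM in NT replicates 1 to 4 and at 5.80, 6.07, 4.14 and 7.33 TPM in *Uba1* replicates 1 to 4. All *Uba1* muscles lay below all NT muscles, and the level in the *Uba1* muscle was 0.585, 0.409, 0.508 and 0.536 of that in the NT muscle of the same mouse. The log2FC was -0.87 (standard error 0.197, 95% interval -1.32 to -0.43, limma adjusted p = 0.139, exact permutation p = 0.0286). With the muscles paired by mouse, limma gave an adjusted p of 0.0149. This paired call was lost without the mouse of replicate 3 (adjusted p = 0.123) and without that of replicate 4 (adjusted p = 0.0661), with 3 mice left in each fit. With a mouse left out, the log2FC lay between -0.94 and -0.78. No 100-base stretch of *Dnajb1* occurs in another annotated gene, nor does one of *Hsph1*.

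*Hsph1* (chromosome 5, 149537636 to 149560156, minus strand, 18 exons) encodes an HSP110 chaperone that exchanges nucleotides on HSP70. Its TPM were 23.0, 18.0, 20.8 and 16.2 with NT siRNAs and 30.2, 25.2, 26.2 and 20.7 with *Uba1* siRNAs. Each *Uba1* muscle was above the NT muscle of its own mouse, although *Uba1* replicate 4 lay within the NT range. The log2FC of *Hsph1* was 0.38 (standard error 0.133, 95% interval 0.08 to 0.68, limma adjusted p = 0.208, and 0.0575 with pairing). *Bag3* (chromosome 7, 128125283 to 128148705, plus strand), the scaffold between HSP70 and small heat shock proteins, was at 91.8, 93.9, 103 and 91.7 TPM in NT muscles and 97.8, 83.2, 97.9 and 93.0 TPM in *Uba1* muscles. The groups overlapped, with *Uba1* replicate 2 lowest and NT replicate 3 highest, and in both groups *Bag3* had the smallest SD relative to its mean of the 10 genes, with a log2FC of -0.035 and a 95% interval from -0.20 to 0.13 (limma adjusted p = 0.798). An antisense gene, *4921520J07Rik*, overlaps exons of *Bag3* by up to 486 bases, and the library kit does not mark strand, so reads from these genes cannot be told apart. Antisense exons also overlap *Hspa1a*, *Hspb8*, *Cryab*, *Hsp90aa1* and *Hspa8*, by 377, 224, 122, 69 and 62 bases at most.

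Ratios within a muscle were taken for pairs chosen after their values were seen, and are a description with no test. *Dnajb1* was at 0.393 to 0.846 of *Hsph1* with NT siRNAs and at 0.158 to 0.355 with *Uba1* siRNAs, lower in 4 of 4 mice. A ratio within a muscle shows unequal change and does not depend on the scaling of the muscle. *Cryab* and *Hsph1* stood closer together, with *Cryab* between 20.8 and 26.4 times *Hsph1* in all 8 muscles, a ratio that was lower with *Uba1* siRNAs in 4 of 4 mice.

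**Figure D2:**
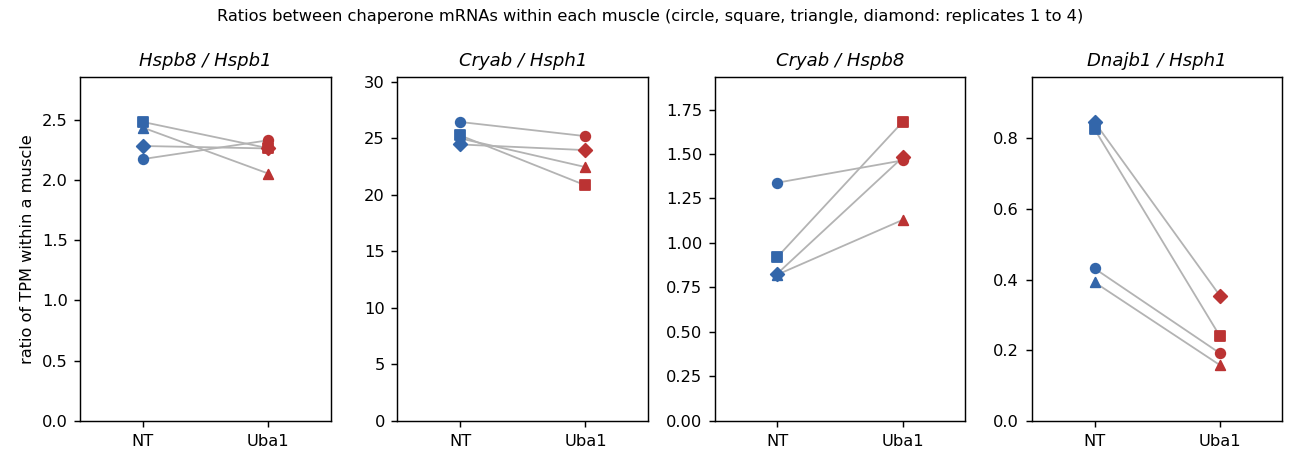
Ratios of TPM within each muscle for pairs of chaperone genes, by siRNA, with a point for each muscle, its shape for the replicate, and lines joining the muscles of a mouse. The ratio of *Dnajb1* to *Hsph1* separates the groups (0.393 to 0.846 against 0.158 to 0.355), whereas that of *Hspb8* to *Hspb1* stays between 2.05 and 2.48 in all muscles.

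*Hsp90aa1* (chromosome 12, 110656842 to 110669166, minus strand), the inducible cytosolic HSP90 that matures kinases and steroid receptors, was at 21.1, 22.5, 30.3 and 22.3 TPM in NT muscles and 26.5, 20.7, 28.5 and 18.7 TPM in *Uba1* muscles. The groups covered each other, with NT replicate 3 apart from the other NT muscles. Its log2FC was -0.032 with a 95% interval from -0.38 to 0.31 (limma adjusted p = 0.920), and it turned positive, 0.080, without NT replicate 3. Its 100-base stretches occur in other annotated genes in 44.1% of cases.

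Of the small heat shock proteins, *Cryab* (chromosome 9, 50651859 to 50668567, plus strand), which binds desmin and titin in striated muscle, was at 607, 453, 519 and 395 TPM in NT muscles and 761, 526, 587 and 495 TPM in *Uba1* muscles. Every mouse had more *Cryab* mRNA in the *Uba1* muscle, but the groups overlapped. The log2FC was 0.26 (standard error 0.162, 95% interval -0.10 to 0.62, limma adjusted p = 0.393, exact permutation p = 0.257). With pairing, limma gave an unadjusted P of 0.0059 and an adjusted p of 0.105, against an unadjusted P of 0.141 without it. *Hspb8* (chromosome 5, 116546409 to 116561084, minus strand), the BAG3 partner, was at 454, 492, 631 and 477 TPM in NT muscles and 520, 313, 520 and 334 TPM in *Uba1* muscles. It was lower in 3 of 4 mice, with replicate 1 on the other side, and its log2FC was -0.31 (standard error 0.188, 95% interval -0.74 to 0.11, limma adjusted p = 0.380). *Hspb1* (chromosome 5, 135916760 to 135918417, plus strand), which associates with actin filaments, was at 209, 198, 259 and 209 TPM in NT muscles and 223, 138, 253 and 148 TPM in *Uba1* muscles, a log2FC of -0.24 (standard error 0.193, limma adjusted p = 0.502).

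In these genes the spread followed single muscles. *Hspb8* and *Hspb1* were both lowest in *Uba1* replicates 2 and 4, the muscles with the lowest summed fast myofiber markers (102906 and 120370 TPM) and the highest mitochondrial shares (50.3 and 46.5%), and the part of these in the result was not tested. *Hspb8* stood at 2.05 to 2.48 times *Hspb1* in all 8 muscles. *Cryab* did not follow them: its ratio to *Hspb8* was 0.822 to 1.34 with NT siRNAs and 1.13 to 1.68 with *Uba1* siRNAs, higher in 4 of 4 mice. The *Hspb1* reads may be shared, since 55.4% of its 100-base stretches occur in *Hsp25-ps1*.

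The members were next set beside all genes tested. At an adjusted p of 0.05, 0 of 10 members were called, against 0.026% of all genes. At an unadjusted P under 0.05, *Dnajb1*, *Hspa1a* and *Hspa1b* were lower and *Hsph1* was higher, 3 and 1 of 10, whereas 1.98% of all genes were lower and 16.0% higher (limma). *Hsph1* no longer passed by the Kruskal-Wallis test or without NT replicate 2, NT replicate 4 or *Uba1* replicate 1, and *Hspa1b* no longer passed without NT replicate 2 or *Uba1* replicate 1. By the Kruskal-Wallis test the adjusted p called no gene at all, with 2013 higher and 197 lower at an unadjusted P under 0.05. The smallest P of that test for 4 against 4 muscles, 0.0209, had an adjusted p of 0.18 here, so no gene could be called. The study's own threshold, which asks for P under 0.05 before adjustment and a log2FC of more than 0.58 in either direction, was met by *Dnajb1* alone, 1 of 10 members lower and 0 higher, against 0.833% of all genes lower and 0.442% higher. With pairing by mouse 1 of 10 members, *Dnajb1*, passed the adjusted p and was lower, against 0.304% of all genes lower, 0.191% higher and 0.494% in all (57 genes, and 7 without replicate 3 to 282 without replicate 1).

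Groups did not overlap in 2 of 10 members (*Hspa1a* and *Dnajb1*), both lower, against 1.01% of all genes lower and 10.6% higher. A member was lower in 4 of 4 mice in 3 cases and higher in 2, against 2.98% and 32.2% of all genes. The log2FC of 8 of 10 members was below 0 and their median was -0.14, while 81.8% of all genes were above 0 with a median of 0.11. Median-ratio scaling moved the median of all genes down by 0.11 on the log2 scale, to -0.0055, with 48.0% of genes above 0, and turned 1844 higher and 228 lower genes at an unadjusted P under 0.05 into 450 and 773. Under that scaling *Hsph1* and *Cryab* were still the members above 0 (0.25 and 0.13), the members' median was -0.27, and *Dnajb1* was at -0.99. At an unadjusted P under 0.05, 6 members were then lower, with *Hspb8*, *Hspb1* and *Bag3* added, and 1 was higher. *Hspa8*, *Hsp90aa1* and *Bag3* had log2FC of -0.14, -0.16 and -0.16 under that scaling (limma adjusted p = 0.522, 0.674 and 0.327).

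**Figure D3:**
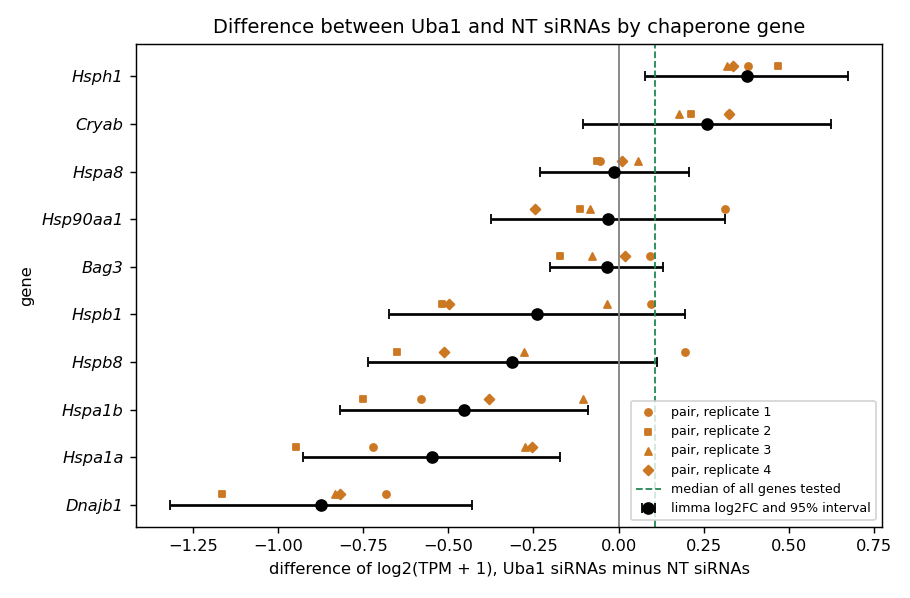
Log2FC on log2(TPM + 1), *Uba1* minus NT siRNAs, of the 10 chaperone genes, with 95% intervals from limma as bars and the difference within each mouse as points, over 4 muscles each. A solid line marks 0 and a dashed line the median of all genes, 0.11. *Dnajb1* lies at -0.87, *Hspa1a* at -0.55 and *Hsph1* at 0.38, with intervals apart from 0.

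The rest of the chaperone network was counted in 9 lists with 77 genes, of which 75 were tested, and *Hspb9* and *Cryaa* were below the filter. None of the 75 passed the adjusted p, with or without pairing, or met the study's threshold, which over all genes were met by 0.026%, 0.494% and, higher and lower, 0.442% and 0.833%. At an unadjusted P under 0.05, 12 of 75 were higher and 0 lower, against 16.0% and 1.98% of all genes. A log2FC above 0 was found in 63 of 75 (25 of 75 with median-ratio scaling), against 81.8% of all genes (48.0% with that scaling), and the median was 0.085. The counts from TPM as deposited are near those of all genes and are no result about the network, while the count with median-ratio scaling is below that of all genes. The transcription factor *Hsf1* was at 9.63 ± 0.560 TPM in NT muscles and 9.69 ± 0.234 TPM in *Uba1* muscles, and was named after its values were seen. *Hsf2* and *Hsf4*, with the smallest P of the HSF list, had log2FC of 0.10 and 0.099, which turned negative with median-ratio scaling.

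The counts above 0 given next for each list stand beside the same 81.8% of all genes and are no result of their own. The log2FC within the lists were smaller in size than that of *Dnajb1*, and with median-ratio scaling the median of 7 of the 9 lists was below 0, with those of the HSP90 list at 0.023 and of the list of other small heat shock symbols at 0.029. Of 11 other J-domain genes, 7 were above 0, and *Dnaja4*, a cytosolic J-domain protein, was at 45.6 ± 4.53 TPM in NT muscles and 59.2 ± 7.61 TPM in *Uba1* muscles (log2FC 0.37, limma adjusted p = 0.174, and 0.0575 with pairing). *Dnajc5*, the cysteine string protein of secretory vesicles, had a log2FC of 0.21. With median-ratio scaling they were at 0.24 and 0.083. The other 4 of the 11 were below 0, as *Dnajb1* was. All 7 other HSP70 and HSP110 genes were above 0, but their median turned to -0.048 with median-ratio scaling, and the genes with the smallest P were *Hspa1l* (log2FC 0.38, and 0.26 with that scaling) and *Hspa12b* (log2FC 0.31, and 0.19). All 6 BAG and exchange factor genes were above 0, with a median of -0.054 under that scaling, and the genes with the smallest P were *Bag4* (log2FC 0.27, and 0.19 with that scaling) and *Bag5* (log2FC 0.21, and 0.088). Neither family had a gene that passed the adjusted p.

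Of 16 HSP90 genes and co-chaperones, 15 were above 0 (81.8% of all genes). The immunophilin *Fkbp5*, a glucocorticoid target, was at 6.39 ± 0.981 and 8.46 ± 1.01 TPM (log2FC 0.36) and *Fkbp4* at 70.9 ± 2.34 and 79.8 ± 0.562 TPM (log2FC 0.17) with NT and *Uba1* siRNAs. With median-ratio scaling their log2FC were 0.24 and 0.040. The list of other small heat shock symbols had the smallest P in *Hspb11* (log2FC 0.34, and 0.25 with median-ratio scaling) and *Hspb2* (log2FC 0.16, and 0.032), with 3 of 5 tested above 0. *Hspb11* shares the symbol but not the protein family. *Hspb3*, *Hspb6* and *Hspb7* had log2FC of -0.13, -0.068 and 0.16, and neither these nor *Hspb2* had an unadjusted P under 0.05 (limma). Among 14 chaperonin and prefoldin genes 12 were above 0, with the smallest P in *Cct7* (29.6 ± 1.01 and 36.4 ± 3.54 TPM, log2FC 0.29, and 0.16 with median-ratio scaling) and *Cct4* (log2FC 0.23, and 0.10), subunits of the ring that folds actin and tubulin. Among the 6 mitochondrial chaperones 5 were above 0, with the smallest P in *Hspe1* (log2FC 0.20, and 0.067 with median-ratio scaling) and *Trap1* (log2FC 0.10, and -0.029). Of 6 genes listed for selective autophagy in muscle 4 were above 0, with the smallest P in *Wipi1*, an autophagosome protein (log2FC 0.092, and -0.034 with median-ratio scaling), and *Tpm1*, a tropomyosin of the thin filament (log2FC -0.16, and -0.29).

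**Figure D4:**
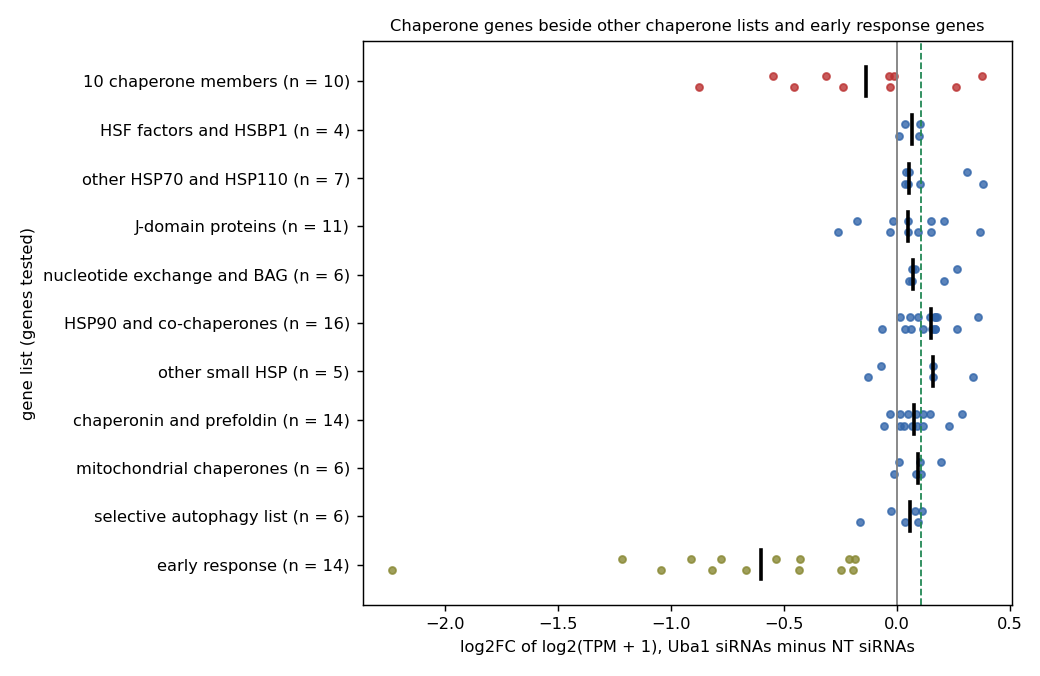
Log2FC on log2(TPM + 1), *Uba1* minus NT siRNAs, of each gene of the 10 members, of the 9 other chaperone lists and of the early response list, with a point for each gene, a bar at the median of a list, a solid line at 0 and a dashed line at the median of all genes. The medians of the other chaperone lists lie between 0.048 and 0.16 (between -0.078 and 0.029 with median-ratio scaling), that of the 10 members at -0.14 and that of the early response genes at -0.60.

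Early response genes, which cells induce rapidly on stimulation or stress, were set beside the members as a list of 14. The list was chosen with earlier results of these data known, so its counts are a description and no independent test. All 14 had a log2FC below 0, with a median of -0.60, while 81.8% of all genes were above 0, and 6 of 14 met the study's threshold on the lower side, against 0.833% of all genes: *Atf3*, *Myc*, *Egr2*, *Egr3*, *Nr4a1* and *Btg2*. *Atf3*, a stress-induced transcription factor, was at 116 ± 35.1 TPM in NT muscles and 25.4 ± 14.1 TPM in *Uba1* muscles (log2FC -2.23, limma adjusted p = 0.0575, and 0.00663 with pairing). *Myc* was at 11.0 ± 2.63 and 4.20 ± 1.44 TPM (log2FC -1.21, limma adjusted p = 0.0760, and 0.0268 with pairing). Neither *Atf3* nor *Myc* overlapped between the groups.

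The summed TPM of the 14 genes were 1371, 2498, 1631 and 1681 in NT replicates 1 to 4 and 981, 1293, 804 and 1769 in *Uba1* replicates 1 to 4. These sums overlapped between the groups, since *Uba1* replicate 4 was above 3 NT muscles. NT replicate 2 had the highest sum and also the highest *Dnajb1*, *Hspa1a* and *Hspa1b*. Within the *Uba1* muscles *Dnajb1* took the same order as the sum, with replicate 3 lowest and replicate 4 highest, but in NT muscles it did not, since replicate 3 had the lowest *Dnajb1* and replicate 1 the lowest sum. Summed *Hspa1a* and *Hspa1b* did not take that order either, at 8.34, 11.6, 12.7 and 12.5 TPM in *Uba1* replicates 1 to 4, with the highest value in the muscle with the lowest early response sum. The part of the early response in the *Dnajb1* and HSP70 values was not tested.

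**Figure D5:**
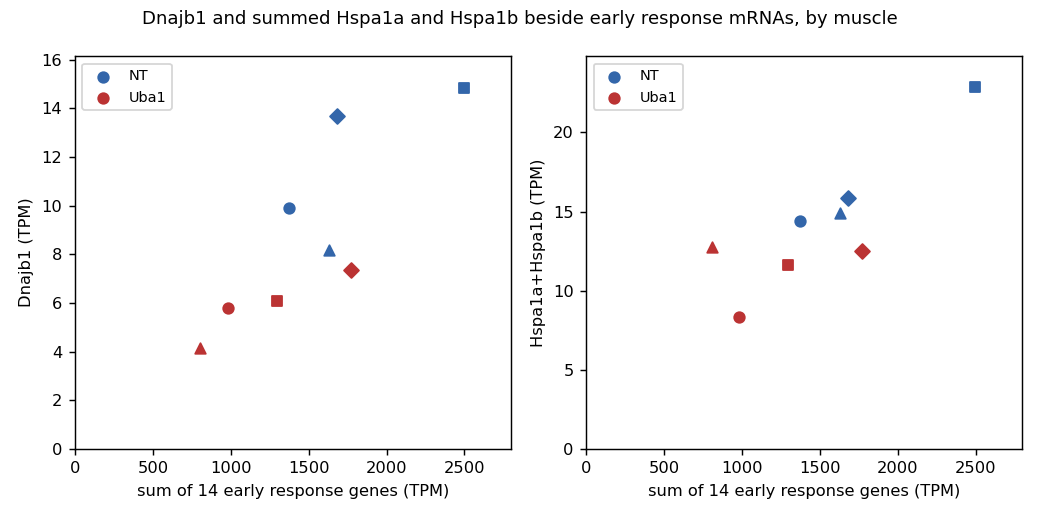
Summed TPM of the 14 early response genes (x axis) against the TPM of *Dnajb1* and of *Hspa1a* plus *Hspa1b* (y axes) in the 8 muscles, with colour for the siRNA and shape for the replicate. NT replicate 2 has the highest sum, 2498 TPM, and the highest *Dnajb1*, 14.8 TPM, and *Uba1* replicate 4 has a sum of 1769 TPM with *Dnajb1* at 7.33 TPM.

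Markers of other cells in the muscle were also compared. Summed fibroblast markers were 429 to 913 TPM in NT muscles and 566 to 1130 TPM in *Uba1* muscles, with 5 of 5 log2FC above 0 and a median of 0.30 (0.19 with median-ratio scaling), beside 81.8% of all genes above 0. Summed macrophage and leukocyte markers were 103 to 329 and 100 to 350 TPM, with 5 of the 8 genes past the filter and the T cell marker *Cd3e* at 0.0664 TPM or less in every muscle. Slow and oxidative myofiber markers were 133 to 256 and 202 to 409 TPM, with 4 of 7 tested above 0 and a median log2FC of 0.027 (-0.088 with median-ratio scaling). *Myh2* held the largest part of these sums, at 123 ± 42.6 TPM in NT muscles and 191 ± 101 TPM in *Uba1* muscles. Erythroid markers summed to 1154 to 4134 TPM in NT muscles and 1114 to 2167 TPM in *Uba1* muscles, with 3 of 3 log2FC below 0 and a median of -0.69. Adipocyte markers summed to 62.6 to 73.7 and 59.2 to 75.2 TPM and had a median log2FC of -0.40 with 2 of 3 below 0. *Adipoq* was at 0.741 and 1.52 TPM and *Plin1* at 0.0963 and 0.226 TPM in *Uba1* replicates 2 and 4, in which *Hspb8* and *Hspb1* were lowest. *Fabp4*, the most abundant of the 3, did not follow, at 62.7 and 57.5 TPM there and 62.8 and 57.4 TPM in the NT muscles of the same mice. Satellite cell and regenerating fiber markers had a median of -0.39 with 3 of 5 below 0, endothelial markers one of 0.026 and Schwann cell markers one of 0.083. No marker in any of these lists passed the adjusted p, and the part of these cells in the chaperone values was not tested.

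Genes whose levels were most like those of the inducible HSP70 pair were sought by Pearson's r of log2(TPM + 1) over the 8 muscles, which come from 4 mice, so that r describes these muscles only. Among the 5 most like *Hspa1a* and *Hspa1b* summed were *Stmn4* (0.925), *Ppbp* (0.919), *Arc* (0.900) and *Kdm6b* (0.895). *Stmn4* and *Ppbp* stood near the filter of 1 TPM. *Arc* is an activity-induced early gene. The 5 most like *Bag3* were *Ppfia4* (0.971), *S100a10* (0.968), *Inha* (0.967), *Eno1* (0.967) and *Sars2* (0.966). *S100a10* was lowest, at 23.0 TPM, in *Uba1* replicate 2 and highest, at 55.7 TPM, in NT replicate 3, the muscles in which *Bag3* was also lowest and highest. A choice by r over the same muscles favours such a match, so it is no separate result.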

How the data were processed

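RNA of 8 TA muscles was sequenced from TruSeq libraries, whose kit does not mark strand. In CLC Genomics Workbench the authors mapped reads to GRCm39, and they deposited TPM per gene, the only unit used. The annotation and the treatment of reads matching several genes are not given in the sources used here. TPM keep no depth, so no counting interval is given, and the number of muscles limits the precision.

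Genes that reached 1 TPM in 4 or more muscles were tested on log2(TPM + 1) with limma (version 3.58.1, R 4.3.3; lmFit, eBayes with a trend) without covariates, all two-sided with Benjamini-Hochberg adjustment over 11530 genes. The added 1 makes a log2FC smaller for genes with low TPM. Single values were compared by exact permutation tests, which took the muscles as unpaired. The study's methods name an unpaired Kruskal-Wallis test, which was run as an alternative.

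Equal mouse numbers in the titles mark the contralateral muscles of a mouse. Same-numbered muscles' deviations from the group means correlated at -0.00037, 0.20, 0.58 and 0.54, and limma with the replicate block is the paired fit. Alternatives were another pseudocount, other filters, median-ratio and quantile scaling, TPM without mitochondrial genes, the block alone and with median-ratio scaling, summed *Hspa1a* and *Hspa1b*, and leaving out each muscle. The block with summed paralogs and the block without each mouse were chosen after seeing the data.

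The members and lists were chosen with earlier results of these data known. All members were named. Of each list, genes passing the adjusted p or the study's threshold were named, otherwise the 2 with the smallest P. Of the genes most like the HSP70 pair, 1 is not reported here. Shared 100-base stretches were sought among GENCODE M39 transcripts, and promoters were read from GRCm39.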

Additional observations from a re-analysis of the deposited data

Results flagged for a closer look

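*Hsp90aa1* was at 30.3 TPM in NT replicate 3, apart from the other NT muscles at 21.1 to 22.5 TPM. The gap to the nearest muscle was 0.851 of the range of the group, above Dixon's critical value at the 95% level for 4 samples. It was the 1 such muscle in 22 groups of 4 compared, and chance gives about 5% of groups. Without that muscle the log2FC of *Hsp90aa1* was 0.080.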

How the results depend on the processing

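Over 226 values of the 10 members under alternatives, 205 kept their direction and side of the adjusted p of 0.05, 14 changed sign and 7 newly passed. The sign changes were in *Hspa8*, *Hsp90aa1* and *Bag3*, whose log2FC ranged over -0.088 to 0.040, -0.13 to 0.080 and -0.061 to 0.017 with a muscle left out, and over -0.035 to 0.0045 (0.0011 without replicate 1), -0.15 to 0.040 and -0.077 to 0.011 with the replicate block and a mouse left out. *Hspa8* was also at 0.0056 without mitochondrial genes. With median-ratio scaling these genes lay lower, at -0.14, -0.16 and -0.16. With a muscle left out, *Dnajb1* stayed between -1.02 and -0.74, *Hspa1a* between -0.64 and -0.41 and *Hsph1* between 0.29 and 0.47, while *Hspb8* ranged from -0.43 to -0.18, *Hspb1* from -0.39 to -0.10 and *Cryab* from 0.13 to 0.37. The replicate block called 57 genes at the adjusted p where the unpaired fit called 3, and 1 member, *Dnajb1*, in place of 0. Its count was 282, 27, 7 and 27 without replicate 1, 2, 3 and 4. It changed no other call of a member, although without replicate 1 *Hsph1* (adjusted p = 0.0424) and *Hspb8* (adjusted p = 0.0380) also passed in limma. The block with median-ratio scaling called 82 genes and 1 member. Genes called by the adjusted p numbered 11 among genes averaging 5 TPM or more, 28 with median-ratio and 28 with quantile scaling, 14 without mitochondrial genes, 0 by the Kruskal-Wallis test, and 2 to 39 with a muscle left out (39 without *Uba1* replicate 4). The Kruskal-Wallis test could reach no adjusted p below 0.18 with these 8 muscles, so its 0 is no finding. By the study's threshold 51 genes were higher, and 151 with a pseudocount of 0.1, 20 among genes averaging 5 TPM or more, 29 after median-ratio and 28 after quantile scaling, 100 without mitochondrial genes and 50 to 79 with a muscle left out. The 96 lower genes became 159 with the block and median-ratio scaling. Members meeting that threshold numbered 1, and 1 to 2 with a muscle left out. They numbered 2, with *Hspa1a* added, at a pseudocount of 0.1 (122 of all genes lower) and after median-ratio (138) or quantile scaling (133). The same held for the block with median-ratio scaling (159) and the block without replicate 3 (100) or replicate 4 (113). With median-ratio scaling, with or without the block, *Hsf2*, *Hsf4*, *Trap1* and *Wipi1* were at -0.0099, -0.016, -0.029 and -0.034, and with quantile scaling *Hsf2* and *Hsf4* were at -0.0079 and -0.0053. Except for the counts that follow from fewer genes or muscles, the cause of these shifts was not tested. Protein levels were not analysed here.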
